A study of Rhodotorula toruloides with 36 samples.

Results

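The genes described here are the 94 of 8490 catalogue genes of the yeast Rhodotorula toruloides IFO0880 whose messenger RNA was lower in low than in high nitrogen in all 6 pairs of matched groups. Sample titles begin with Rt88, and IFO0880 is the strain of the gene catalogue. The genes were chosen by measured values. A gene was kept if the mean of its 3 replicates plus 1 CPM (counts scaled to a common library size by the TMM method of edgeR) in low nitrogen was at most 0.5 times that in high nitrogen, with and without acetate, at 48, 64 and 88 h. Because the rule used every low and high nitrogen library, differences between the nitrogen media are given below as a description with no test. The tests concern acetate and time within each nitrogen medium, which the rule did not use.

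R. toruloides is a red basidiomycete yeast that makes carotenoids and stores large amounts of triacylglycerol. Nitrogen shortage is the classic trigger of lipid storage in this species: growth slows while carbon is still taken up, and the surplus carbon is turned into lipid. In fungi generally, the supply of ammonium also sets the use of other nitrogen sources and the making of ribosomes, so genes of growth are commonly low when nitrogen is scarce. The catalogue numbers of the 94 genes are paired with no name or function in anything used here. The genes are therefore given by mRNA number, with protein number and position in assembly version 4 of the strain where they are first described, and they could not be sorted by role or set against lists of pathway genes.

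The 12 groups crossed low or high nitrogen with no acetate or 2 g/L acetate and with sampling at 48, 64 or 88 h, with 3 replicates each. Low nitrogen was 0.1 g/L ammonium sulfate. For high nitrogen the treatment protocol has 5 g/L of the salt and the design text 10 g/L. The design text gives 0.75 g/L yeast extract for low nitrogen and none for high nitrogen, so a nitrogen difference may hold a yeast extract difference. All cultures were seeded from 3 colonies grown in glucose medium, whose pellets were divided among flasks, and the carbon source of the sampled cultures is not given. What a replicate number stands for, and whether the 3 times come from the same flasks, is not stated, so p-values measure the spread between these samples, which may be smaller than that between independent cultures.

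The 36 libraries held between 10173719 and 63311529 counts, and 3 counts corresponded to between 0.0488 and 0.397 CPM. The low-count filter of edgeR kept 8314 genes, all 94 among them. In 4 groups a library that lay far from the other replicates is said below to stand apart, and no limit for this choice is given here. They were replicate 2 of high nitrogen without acetate at 64 h and at 88 h, replicate 3 of high nitrogen with acetate at 48 h, and replicate 1 of low nitrogen without acetate at 64 h. All were kept, and values that turn on them are given with the libraries named.

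The 94 genes took a small share of the messenger RNA in high nitrogen and a far smaller one in low nitrogen. In high nitrogen without acetate they held 2.25% ± 0.190 of the counts at 48 h, 3.12% ± 0.344 at 64 h and 2.44% ± 0.0283 at 88 h (mean ± SD, n = 3). With acetate the shares in high nitrogen were 2.56% ± 0.243, 3.18% ± 0.0597 and 2.77% ± 0.154. In low nitrogen without acetate they were 0.386% ± 0.0122, 0.282% ± 0.00993 and 0.247% ± 0.00518, and with acetate 0.364% ± 0.0275, 0.292% ± 0.00767 and 0.268% ± 0.00532. The share was thus highest at 64 h in high nitrogen and at 48 h in low nitrogen. In RNA from whole cultures, fewer cells carrying a transcript and less of it per cell cannot be told apart.

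The median gene of the 94 was 4.22-fold lower in low nitrogen at 48 h without acetate, and 6.50-fold lower at 88 h without acetate, on the scale of CPM plus 1. The median log2 ratios were -2.08, -2.20 and -2.70 without acetate and -2.33, -2.57 and -2.52 with acetate, at 48, 64 and 88 h. The medians over all genes tested lay within 0.02 of 0 in each pair. In 93 of the 94 genes all 3 low nitrogen libraries lay below all 3 high nitrogen libraries in each of the 6 pairs, and 7.37% of all genes tested did the same, a count that the rule itself used. The exception was mRNA_6702 (protein 15070, scaffold 6, 1485635 to 1488081, plus strand, 10 exons), a gene that overlaps a neighbour on its own strand. At 64 h without acetate its low nitrogen libraries stood at 34.9, 21.9 and 28.2 CPM and its high nitrogen libraries at 74.5, 33.2 and 109 CPM, the 34.9 CPM and the 33.2 CPM both coming from libraries that stood apart. In 70 genes all 18 low nitrogen libraries lay below all 18 high nitrogen libraries whatever the acetate and time. The rule shaped this count too, and its share over all genes was not taken.

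**Figure D1:**
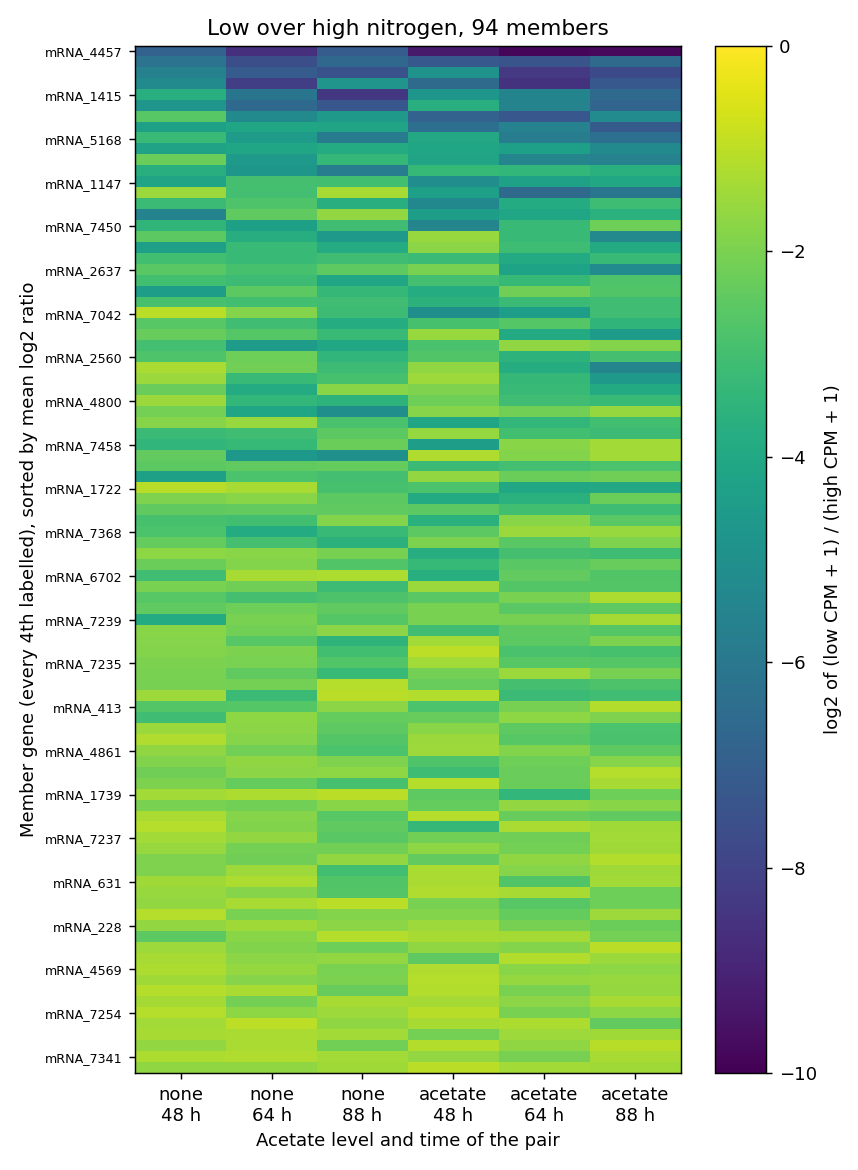
Heat map of the log2 ratio of low to high nitrogen, from mean CPM plus 1 (n = 3 per group), for the 94 genes (rows, deepest mean ratio on top) in the 6 pairs (columns). Every cell lies at or below -1 by the rule, the deepest is -9.84 for mRNA_4457 with acetate at 64 h, and most rows vary from pair to pair by more than 1.

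The genes differed among themselves in how far they were reduced. In 27 genes the mean ratio was 8-fold or deeper. The range of a gene's log2 ratio over the 6 pairs was under 1 in 15 genes and over 3 in 19, with a median of 1.73. Mean CPM, not corrected for gene length, over the high nitrogen libraries ran from 5.29 to 2124 CPM with a median of 98.3, and in low nitrogen from 0.0631 to 360 CPM with a median of 15.5. In low nitrogen 4 genes averaged under 1 CPM, 34 from 1 to 10, 49 from 10 to 100 and 7 over 100 CPM. Low nitrogen therefore left most of these transcripts present at a lower level.

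The highest of the 94 in high nitrogen, in CPM as well as in CPM per kb of exon, and also the most reduced was mRNA_4457 (protein 12825, scaffold 3, 230802 to 232972, plus strand, 10 exons). In high nitrogen without acetate its 3 replicates stood at 549, 1554 and 887 CPM at 48 h, at 2718, 885 and 2994 CPM at 64 h, and at 650, 497 and 375 CPM at 88 h. With acetate the values in high nitrogen were 1017, 2355 and 2419 CPM, then 3731, 4385 and 3612 CPM, then 2716, 2944 and 3951 CPM. Over the 18 low nitrogen libraries the lowest value was 0.675, the median 3.53 and the highest 8.91 CPM. The lowest high nitrogen library, at 375 CPM, was far above the highest low nitrogen one, and the mean log2 ratio was -8.58. In low nitrogen acetate lowered this gene at 48 h, from 7.96, 8.91 and 5.89 CPM to 0.991, 0.675 and 4.78 CPM (log2 fold change -1.75, SE 0.50, edgeR adjusted p = 0.00454). In high nitrogen at 88 h acetate raised it (log2 fold change 2.69, SE 0.42, edgeR adjusted p = 1.45e-06). The SE throughout is the log2 fold change divided by the square root of the test's F, and it understates the error where counts are scarce. Each gene's spread is estimated over all 12 groups together, so the SE can also understate the error in groups whose replicates differ widely. The edgeR adjusted p-values are from its quasi-likelihood test with Benjamini-Hochberg adjustment over the 8314 genes.

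Next to it in depth came 3 genes with mean log2 ratios of -6.92, -6.86 and -6.75. The first, mRNA_668 (protein 9036, scaffold 1, 1608955 to 1610932, minus strand, 4 exons), had a lowest, median and highest value of 37.3, 314 and 908 CPM in high nitrogen and of 0.225, 2.11 and 3.29 CPM in low nitrogen. The second, mRNA_7238 (protein 15606, scaffold 7), ran from 27.3 to 479 CPM around a median of 261 in high nitrogen, and from 0.149 to 6.76 CPM around 0.423 in low nitrogen. The third, mRNA_4106 (protein 12474, scaffold 2, 1370087 to 1372374, plus strand, 4 exons), ran from 42.3 to 1388 CPM around 474 and from 1.59 to 7.40 CPM around 2.74. In none of these genes did any low nitrogen library reach the lowest high nitrogen one. Their low nitrogen values rest on few counts: mRNA_668 had 712 counts and mRNA_7238 had 589 counts over all 18 low nitrogen libraries.

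The other 7 of the 8 genes with the highest CPM in high nitrogen differed in how they moved with acetate within low nitrogen. The level of mRNA_148 (protein 8516, scaffold 1, 372141 to 374834, minus strand, 8 exons) in low nitrogen without acetate stood at 312, 402 and 264 CPM at 48 h, and at 64.2, 61.5 and 83.4 CPM at 88 h. With acetate in low nitrogen it stood at 207, 403 and 262 CPM at 48 h, at 607, 607 and 632 CPM at 64 h, and at 346, 356 and 340 CPM at 88 h. Without acetate the gene fell from 48 to 88 h (log2 fold change -2.28, SE 0.24, edgeR adjusted p = 7.62e-10), and acetate raised it at 64 h by 2.88 (SE 0.24, edgeR adjusted p = 9.47e-11) and at 88 h by 2.32 (SE 0.24, edgeR adjusted p = 2.85e-09) on the log2 scale. In high nitrogen its libraries lay between 956 and 2851 CPM, and acetate passed the test there at no time (edgeR adjusted p = 0.266, 0.81 and 0.416).

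In mRNA_4095 acetate lowered the level in low nitrogen at 48 and 64 h. This gene (protein 12463, scaffold 2, 1346768 to 1349335, plus strand, 8 exons) also fell with time without acetate. In low nitrogen it stood at 91.6, 94.1 and 92.0 CPM without acetate at 48 h, and at 42.2, 37.5 and 29.7 CPM at 88 h. With acetate it stood at 6.44, 8.66 and 17.2 CPM at 48 h, and at 42.7, 49.1 and 46.6 CPM at 88 h. Acetate therefore lowered it at 48 h (log2 fold change -3.09, SE 0.37, edgeR adjusted p = 5.79e-08), while at 88 h the difference was 0.35 and did not pass (SE 0.34, edgeR adjusted p = 0.423). In high nitrogen acetate raised the same gene at 48 h (log2 fold change 1.26, SE 0.33, edgeR adjusted p = 0.00148).

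A gene that hardly moved in low nitrogen was mRNA_3685. For mRNA_3685 (protein 12053, scaffold 2, 345192 to 348217, plus strand, 12 exons) all 18 low nitrogen libraries lay between 172 and 209 CPM, and no acetate or 88 against 48 h comparison in low nitrogen passed the test. In high nitrogen the same gene spanned 244 to 2372 CPM, and acetate raised it at 88 h from 512, 390 and 338 CPM to 1326, 1397 and 1805 CPM (log2 fold change 1.90, SE 0.30, edgeR adjusted p = 1.73e-06). The levels of mRNA_505 (protein 8873, scaffold 1, 1200653 to 1201930, minus strand, 3 exons) lay between 392 and 2702 CPM in high nitrogen and between 44.2 and 149 CPM in low nitrogen. Acetate raised mRNA_505 in high nitrogen at 88 h (log2 fold change 2.36, SE 0.26, edgeR adjusted p = 4.46e-09) and lowered it in low nitrogen at 48 h (log2 fold change -1.17, SE 0.26, edgeR adjusted p = 0.000404). The remaining 3 of the 8, mRNA_3565 (protein 11933, scaffold 2), mRNA_3348 (protein 11716, scaffold 17) and mRNA_2779 (protein 11147, scaffold 15), were reduced less deeply, with mean log2 ratios of -1.95, -2.30 and -2.05. Of these mRNA_2779 was lowered by acetate at all 3 times in low nitrogen, by 1.09, 1.19 and 1.05 on the log2 scale, and mRNA_3348 fell from 48 to 88 h in all 4 media, by 1.00, 1.13, 1.01 and 1.52.

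**Figure D2:**
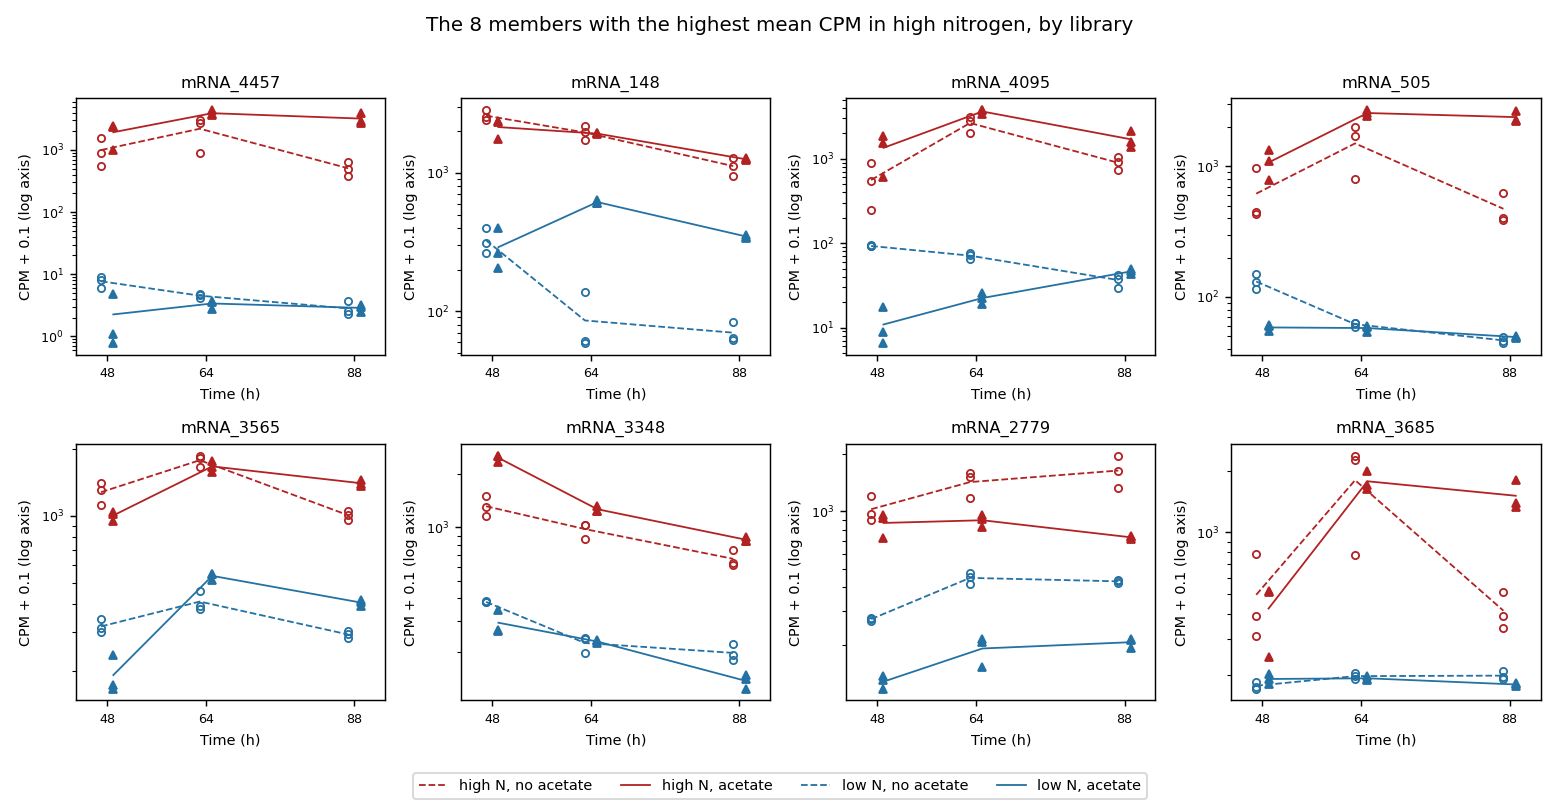
CPM plus 0.1 (log axis) against sampling time in h for the 8 genes of the set with the highest mean level in high nitrogen; each point is 1 library, drawn slightly left (no acetate) or right (acetate) of its time, lines join the means of 3 replicates, red is high and blue low nitrogen, open circles and dashed lines are without and filled triangles and solid lines with acetate. The red points lie above the blue ones in every panel; mRNA_3685 is flat in low nitrogen, and mRNA_148 rises with acetate in low nitrogen at 64 h.

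Several of the genes described above also varied between replicates of high nitrogen in the same libraries, which was noticed after their values were seen. At 64 h without acetate replicate 2, which stood apart, was the lowest of 3 for mRNA_4457, mRNA_4095, mRNA_505, mRNA_3685, mRNA_668 and mRNA_4106. For mRNA_668 those values were 812, 414 and 908 CPM, and for mRNA_4106 they were 1319, 592 and 1388 CPM. At 48 h with acetate replicate 1 was the lowest for the same 6 genes, at 57.0 CPM against 305 and 215 CPM for mRNA_668 and at 92.3 CPM against 348 and 357 CPM for mRNA_4106. The spread between replicates in high nitrogen was therefore wide for these genes, but in each of the 6 the lowest high nitrogen library lay above the highest low nitrogen one, narrowly so in mRNA_3685 (244 and 209 CPM).

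Levels can be compared between genes only per length. Per kb of exon, mRNA_4457 reached 1315 CPM in high nitrogen, mRNA_505 reached 1260, mRNA_7728 (protein 16096, scaffold 8, 942668 to 943581, plus strand, 5 exons) reached 1219 and mRNA_2779 reached 1061. In low nitrogen the same genes stood at 2.36, 59.1, 28.7 and 271 CPM per kb. The 4 genes highest per length in high nitrogen, which were close to each other there, were thus far apart in low nitrogen.

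Some genes were reduced alike in all 6 pairs. The least variable was mRNA_4871 (protein 13239, scaffold 3, 1185921 to 1188048, plus strand, 8 exons), whose log2 ratio had a range of 0.55 around a mean of -2.35. Its high nitrogen libraries lay between 36.4 and 93.7 CPM and its low nitrogen libraries between 5.69 and 17.5 CPM. The next were mRNA_4942 (protein 13310, scaffold 3), with a range of 0.64, and mRNA_7793 (protein 16161, scaffold 8), with a range of 0.65.

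At the other end were mRNA_2325, mRNA_1415 and mRNA_4095, with ranges of 5.23, 4.71 and 4.70. For mRNA_2325 (protein 10693, scaffold 13, 613315 to 614433, plus strand, 4 exons) it was the high nitrogen level that moved. It stood at 3.00, 6.29 and 2.76 CPM without and 30.4, 37.1 and 24.7 CPM with acetate at 48 h, and at 3.87, 6.37 and 3.28 CPM without and 121, 134 and 128 CPM with acetate at 88 h. In low nitrogen no library passed 1.57 CPM, and the lowest had 0 counts, which in that library allows up to 0.397 CPM. For mRNA_1415 (protein 9783, scaffold 11, 220311 to 221980, minus strand, 1 exon) the high nitrogen level without acetate rose from 37.6, 34.1 and 35.3 CPM at 48 h to 365, 771 and 509 CPM at 88 h, the 771 CPM being from a library that stood apart. In low nitrogen it lay between 0.280 and 2.15 CPM throughout.

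The threshold cut through a continuous range of values. The genes just inside were mRNA_2668, mRNA_7532 and mRNA_89, whose largest ratios were 0.498, 0.495 and 0.492. The genes just outside were mRNA_5825, mRNA_1499 and mRNA_8009, at 0.503, 0.504 and 0.506. In all, 22 members had a largest ratio above 0.45, 29 genes outside the set had one from 0.5 to 0.55, and 154 genes met the limit in exactly 5 of the 6 pairs. Genes near the limit are therefore not set apart from their neighbours.

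The rule was also applied to 2 of the 3 replicate numbers and read in the number left out. From replicates 2 and 3 it chose 96 genes, of which 79 met it in replicate 1 alone, where 1.1% of all genes did. From replicates 1 and 3 it chose 92 genes, of which 71 met it in replicate 2, against 1% of all genes. From replicates 1 and 2 it chose 92 genes, of which 73 met it in replicate 3, against 1.18% of all genes. A ratio below 1 in all 6 pairs of the left-out replicate was seen in 95, 92 and 92 of these genes, and the share of all genes with such ratios was not taken. These are descriptions, since the replicates of a group may share their colony or flask. With 1 library left out at a time the rule chose between 90 and 96 genes, and 79 of the 94 were in all 36 sets.

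In low nitrogen more of the 94 genes fell than rose from 48 to 88 h. Without acetate 53 of them (56.4%) fell and 21 (22.3%) rose by edgeR's test, against 37.4% and 36.2% of all genes tested. With acetate 46 (48.9%) fell and 26 (27.7%) rose, against 35.5% and 38.9%. The median log2 change was -0.55 without and -0.31 with acetate, beside 0.00 and 0.04 over all genes. With library totals in place of TMM the medians were -0.75 and -0.60, beside -0.20 and -0.26 over all genes. In 37 genes (39.4%) the level was lower at 88 than at 48 h both with and without acetate, where 27.3% of all genes were, and in 15 (16.0%) it was higher in both, where 26.6% were. The mean level was highest at 48 h in 57.4% of the 94 without acetate and in 53.2% with it, beside 37.1% and 39.6% of all genes tested.

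The largest falls with time in low nitrogen without acetate, among genes with at least 10 CPM in the higher group, were those of mRNA_5452 and mRNA_8008. For mRNA_5452 (protein 13820, scaffold 5, 124029 to 125828, plus strand, 2 exons) the libraries stood at 137, 147 and 114 CPM at 48 h and at 7.70, 6.95 and 9.94 CPM at 88 h (log2 fold change -4.08, SE 0.24, edgeR adjusted p = 9.61e-15). For mRNA_8008 (protein 16376, scaffold 9, 202492 to 204124, minus strand, 1 exon) they went from 39.8, 42.5 and 47.2 CPM to 7.52, 6.57 and 5.24 CPM (log2 fold change -2.81, SE 0.19, edgeR adjusted p = 9.79e-14). The groups did not overlap in either gene. With acetate, under the same limit, the largest falls were those of mRNA_1361 (protein 9729, scaffold 11), from 9.86, 13.0 and 13.7 CPM to 0.747, 1.74 and 2.19 CPM, and of mRNA_1339 (protein 9707, scaffold 11), from 83.9, 96.2 and 106 CPM to 15.0, 12.1 and 14.6 CPM.

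A smaller group rose with time in low nitrogen. Among genes with at least 10 CPM in the higher group the largest rise was that of mRNA_1841 (protein 10209, scaffold 12, 342620 to 344306, plus strand, 5 exons), from 4.33, 4.90 and 5.67 CPM at 48 h to 27.7, 28.1 and 30.4 CPM at 88 h without acetate (log2 fold change 2.48, SE 0.17, edgeR adjusted p = 1.12e-13). With acetate the same gene rose from 2.97, 3.66 and 2.65 CPM to 25.2, 28.3 and 31.8 CPM (log2 fold change 3.15, SE 0.18, edgeR adjusted p = 3.36e-15). Under that limit the second-largest rises were those of mRNA_6702 without acetate, by 2.31 (SE 0.31, edgeR adjusted p = 1.29e-07), and of mRNA_1116 (protein 9484, scaffold 10) with acetate, by 2.17 (SE 0.29, edgeR adjusted p = 8.03e-08), on the log2 scale.

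In high nitrogen the changes with time were more evenly divided. Without acetate 34 genes rose and 29 fell from 48 to 88 h, near the 32.8% and 32.6% of all genes tested. With library totals in place of TMM the split was 43 against 23 and the median change of all genes was 0.19. With acetate 29 rose and 41 fell, against 33.3% and 33.9% of all genes. Both with and without acetate 10 genes were higher at 88 h, beside 11.3% of all genes, and 14 were lower, beside 10.7%.

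The largest rises with time in high nitrogen were those of mRNA_1415 without acetate, described above (log2 fold change 3.90, SE 0.30, edgeR adjusted p = 4.13e-12), and of mRNA_5377 (protein 13745, scaffold 4, 587217 to 590101, plus strand, 7 exons) with acetate. The latter went from 8.28, 8.79 and 7.90 CPM at 48 h to 144, 146 and 153 CPM at 88 h (log2 fold change 4.16, SE 0.24, edgeR adjusted p = 4.33e-15), while in low nitrogen all 18 of its libraries lay between 0.982 and 3.42 CPM. The second-largest were those of mRNA_1722 (protein 10090, scaffold 12) without acetate, by 3.20 on the log2 scale (SE 0.30, edgeR adjusted p = 2.28e-10), and of mRNA_2637 (protein 11005, scaffold 14) with acetate, by 3.76 (SE 0.21, edgeR adjusted p = 4.02e-15). The largest fall without acetate was that of mRNA_2119 (protein 10487, scaffold 13), from 87.7, 74.6 and 74.3 CPM to 4.25, 3.52 and 4.82 CPM (log2 fold change -4.27, SE 0.17, edgeR adjusted p = 3.56e-17). Next came mRNA_5452, by -2.49 (SE 0.22, edgeR adjusted p = 5.40e-11). With acetate the largest falls were those of mRNA_1339 and of mRNA_1745 (protein 10113, scaffold 12), with log2 fold changes of -2.55 and -2.46.

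Across media, 5 genes fell from 48 to 88 h in all 4 combinations of nitrogen and acetate, beside 5.33% of all genes, a share near that of the 94 (5.32%). They were mRNA_2560, mRNA_3348, mRNA_3391, mRNA_5869 and mRNA_7707, of which mRNA_3391 overlaps a neighbour on its own strand. Without the 4 libraries that stood apart the number was 8. A further 4, mRNA_1722, mRNA_1841, mRNA_2497 and mRNA_2896, rose in all 4, beside 5.41% of all genes, and without replicate 2 of high nitrogen without acetate at 48 h the number was 6. Without acetate 17 genes fell in low nitrogen and rose in high nitrogen, beside 6.3% of all genes. The reverse held for 3, mRNA_4870, mRNA_5332 and mRNA_7544, beside 6.19%, and without replicate 2 of low nitrogen without acetate at 88 h for 2. The difference between the media was not tested, because the rule fixes it in part: the fold at each end of the time course had to stay at 2 or more.

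**Figure D3:**
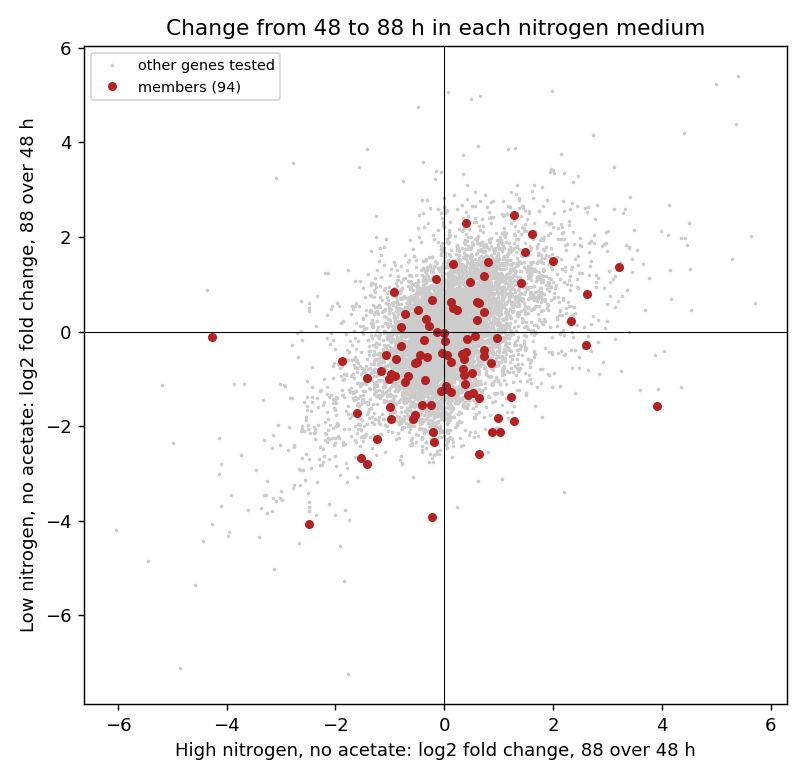
Log2 fold change from 48 to 88 h without acetate in high nitrogen (x axis) and in low nitrogen (y axis) for the 94 genes (red) and the other genes tested (grey), from edgeR. More of the red points lie below than above the horizontal 0 line, 53 called lower and 21 called higher in low nitrogen, while they spread to both sides of the vertical one, 29 and 34.

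Acetate changed 93 of the 94 genes in at least 1 medium and time, a share near that of all genes tested. In none of the 6 acetate comparisons 1 gene was called, beside 1.17% of all genes, and in all 6 comparisons 13 were called, beside 6%. In 1 direction 46 were called, beside 49.2%, and 47 were called higher in some comparisons and lower in others, beside 49.6%. The median absolute log2 fold change at 48 h was 0.71 in low nitrogen and 0.83 in high nitrogen, beside 0.31 and 0.49 over all genes tested. At 64 h it was 0.47 and 0.58 beside 0.27 and 0.44, and at 88 h 0.50 and 0.72 beside 0.30 and 0.60. The genes behind these medians were not matched for level. In low nitrogen 4 of the 94 averaged under 1 CPM and 34 from 1 to 10 CPM, where fold changes are less certain.

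In high nitrogen the calls leaned towards higher with acetate. At 48 h 54 genes (57.4%) rose and 19 (20.2%) fell, against 34.3% and 34.6% of all genes tested, with a median log2 change of 0.49 beside -0.01 over all genes. At 64 h 41 rose and 20 fell, against 30.4% and 36.5%, with a median of 0.17. At 88 h 44 rose and 29 fell, against 38.8% and 36.8%, with a median of 0.29. The lean depended on the scaling at the later times: with library totals in place of TMM, which moved the median acetate change of all genes to -0.31 at 64 h and -0.43 at 88 h, the splits were 31 against 27 and 23 against 39 and the medians -0.07 and -0.17. At 48 h the split was then 41 against 22 and the median 0.35, beside -0.15 over all genes. With only the compared groups in the fit 13 genes in place of 20 fell at 64 h.

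In low nitrogen more genes also rose than fell at each time with TMM scaling, but not at 64 h with library totals. At 48 h 36 genes (38.3%) rose and 27 (28.7%) fell with acetate, against 25.1% and 26% of all genes tested. At 64 h 26 rose and 23 fell, against 23% and 18.8%, and with library totals 17 rose and 25 fell. At 88 h 32 rose and 18 fell, against 25.2% and 22.3%, and the number that fell was 11 when replicate 2 of the acetate group was left out. The medians were 0.15, 0.10 and 0.12 on the log2 scale, and that at 64 h was -0.08 with library totals, beside -0.18 over all genes. Whether acetate acted differently in the 2 nitrogen media was not tested on these genes.

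**Figure D4:**
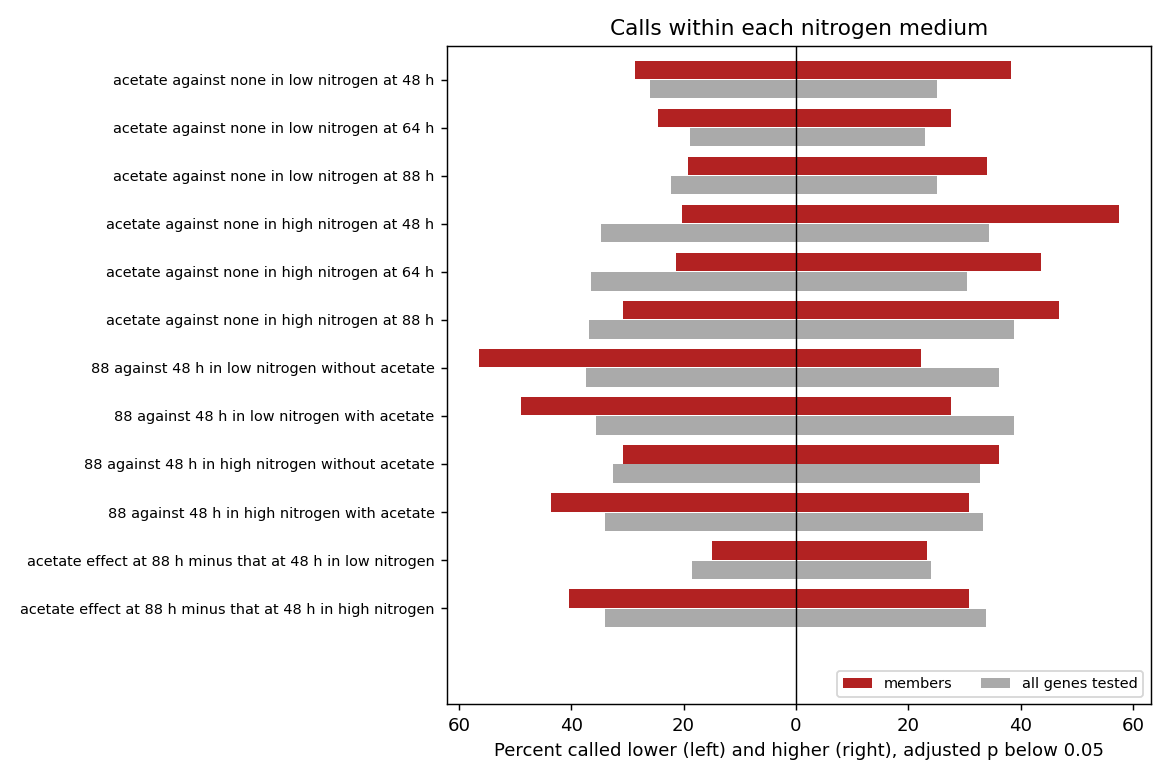
Percent of the 94 genes (red) and of all 8314 genes tested (grey) called lower (left) and higher (right) by edgeR at an adjusted p below 0.05, for the 12 comparisons within a nitrogen medium. The red bars reach further right than the grey ones for acetate in high nitrogen at 48 h (54 genes) and further left for 88 against 48 h in low nitrogen (53 and 46 genes).

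Some genes were raised by acetate at every time. In low nitrogen 16 genes (17.0%) were higher with acetate at all 3 times, beside 5.75% of all genes, and in high nitrogen 18 (19.1%) were, beside 13.5%. With library totals the latter number was 7. In both media 5 were, mRNA_2981, mRNA_3391, mRNA_6454, mRNA_7235 and mRNA_7236, beside 1.38% of all genes; with library totals 2 were, and 3 were when replicate 3 was left out of any of high nitrogen without or with acetate at 48 h or low nitrogen without acetate at 64 h. Of these mRNA_3391 overlaps a neighbour on its own strand. For mRNA_6454 (protein 14822, scaffold 6, 828916 to 829758, plus strand, 4 exons, overlapped by a gene on the other strand) acetate gave log2 fold changes of 3.40 (SE 0.40, edgeR adjusted p = 5.55e-08) and 4.53 (SE 0.46, edgeR adjusted p = 4.49e-09) in low nitrogen at 48 and 64 h. At 64 h its low nitrogen libraries stood at 0.889, 1.46 and 1.32 CPM without and at 35.6, 28.9 and 19.9 CPM with acetate, and its high nitrogen libraries at 44.0, 17.5 and 32.0 CPM without and at 231, 379 and 227 CPM with acetate. Acetate thus raised it in both media, and with acetate in low nitrogen it stood at about the level of high nitrogen without acetate. For mRNA_2981 (protein 11349, scaffold 16, 3375 to 5505, plus strand, 8 exons) the low nitrogen libraries at 88 h stood at 11.8, 9.56 and 8.53 CPM without and at 57.7, 50.1 and 72.1 CPM with acetate (log2 fold change 2.61, SE 0.21, edgeR adjusted p = 3.83e-11).

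The largest acetate rise in low nitrogen at 64 and 88 h was that of mRNA_1339 (33466 to 34202 on scaffold 11, plus strand, 3 exons), with log2 fold changes of 4.61 (SE 0.28, edgeR adjusted p = 1.16e-13) and 2.66 (SE 0.27, edgeR adjusted p = 3.92e-09). At 64 h its low nitrogen libraries stood at 1.73, 2.63 and 1.97 CPM without and at 62.1, 53.7 and 35.3 CPM with acetate. In high nitrogen the gene was higher with acetate at 48 h, at 202, 229 and 232 CPM against 52.2, 66.6 and 41.5 CPM, and lower at 88 h, at 44.0, 39.9 and 29.0 CPM against 118, 94.9 and 87.8 CPM. The largest rises in high nitrogen were those of mRNA_7042 (protein 15410, scaffold 7, 735452 to 736654, plus strand, 4 exons, overlapping a neighbour on its own strand) at 48 h and of mRNA_2325 at 88 h. For mRNA_7042 the libraries went from 7.33, 6.98 and 11.4 CPM to 135, 112 and 107 CPM (log2 fold change 3.79, SE 0.17, edgeR adjusted p = 1.02e-17). For mRNA_2325, whose values are given above, the log2 fold changes were 2.92, 2.98 and 4.85 at 48, 64 and 88 h.

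Acetate lowered 9 genes at all 3 times in low nitrogen, beside 3.81% of all genes. They were mRNA_1147, mRNA_2779, mRNA_2896, mRNA_3037, mRNA_6964, mRNA_7450, mRNA_7458, mRNA_7544 and mRNA_7976, the last overlapped by a gene on the other strand. In high nitrogen it lowered 3 (3.19%), mRNA_413 (overlapped on the other strand), mRNA_1373 and mRNA_6758, beside 13% of all genes. This number was 9 with library totals, 1 with only the compared groups in the fit and 1 when replicate 1 was left out of high nitrogen at 48 h, without or with acetate. With all groups and libraries in the fit, no gene was lower in all 6 comparisons by edgeR or DESeq2, beside 0.902% of all genes by edgeR. At an unadjusted p below 0.05 by edgeR 0 of 94 were. With library totals 3 genes were called lower in all 6. The number was 1 with only the compared groups in the fit and 1 without the 4 libraries that stood apart. It was also 1 without replicate 2 of high nitrogen without acetate at 48 h.

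Among genes with at least 10 CPM in the higher group, the largest acetate fall in low nitrogen at each time was that of mRNA_2896 (protein 11264, scaffold 15, 478182 to 479265, plus strand, 6 exons). Its libraries stood at 15.3, 12.1 and 16.4 CPM without and 1.22, 0.596 and 0.848 CPM with acetate at 48 h, and at 33.5, 45.9 and 50.2 CPM against 1.32, 1.78 and 1.77 CPM at 64 h. The log2 fold changes were -4.05 (SE 0.40, edgeR adjusted p = 1.25e-09), -4.64 (SE 0.39, edgeR adjusted p = 8.75e-11) and, at 88 h, -3.69 (SE 0.33, edgeR adjusted p = 2.97e-10). In high nitrogen it was lower with acetate at 48 h and at 64 h, where it stood at 153, 101 and 120 CPM against 966, 474 and 820 CPM, and did not pass the test at 88 h (edgeR adjusted p = 0.223). A like fall was that of mRNA_6964 (protein 15332, scaffold 7, 550832 to 553525, plus strand, 6 exons) in low nitrogen at 64 h, from 20.0, 23.7 and 16.7 CPM to 1.32, 2.07 and 2.27 CPM (log2 fold change -3.29, SE 0.26, edgeR adjusted p = 3.55e-11). Other large falls in high nitrogen were those of mRNA_6758 (protein 15126, scaffold 7) at 48 h, from 116, 166 and 102 CPM to 10.2, 9.33 and 16.9 CPM, of mRNA_7458 (protein 15826, scaffold 8) at 64 h, from 95.2, 95.6 and 95.7 CPM to 24.6, 21.0 and 23.1 CPM, and of mRNA_2663 (protein 11031, scaffold 14) and mRNA_1587 (protein 9955, scaffold 11) at 88 h, by 2.22 and 2.06 on the log2 scale.

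The log2 acetate effect at 88 h minus that at 48 h was also tested within each medium. In high nitrogen it was above 0 in 29 genes and below 0 in 38, against 33.8% and 34% of all genes tested, and with library totals the split was 22 against 46, and the median over all genes -0.33. In low nitrogen it was above 0 in 22 and below 0 in 14, against 24.1% and 18.4%, and with library totals the split was 20 against 21. The largest positive difference in high nitrogen was that of mRNA_5452. It stood at 451, 279 and 403 CPM without and 56.4, 60.2 and 49.5 CPM with acetate at 48 h, and at 64.3, 61.4 and 79.5 CPM without and 240, 199 and 276 CPM with acetate at 88 h.

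Neighbouring positions held some of the genes. Of the 94, 13 (13.8%) lay directly beside another in catalogue order, in 5 runs. Among the 189 genes that were at least 2-fold higher in low nitrogen in all 6 pairs, 50 (26.5%) lay in 20 runs. The shares are not directly comparable, since a larger set places more of its genes side by side. The share to be had from any set of either size was not taken. The longest run was of 5 genes on scaffold 7, mRNA_7235 to mRNA_7239, all on the plus strand from 1191000 to 1200363. Gaps of 328 and 107 bases separate the first 3 gene models, and the last 3 follow each other with 0 bases between. The gene before the run, mRNA_7234, had a mean log2 ratio of 0.05, and the gene after it, mRNA_7240, averaged 0.628 CPM in high nitrogen and was too low to meet the rule.

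Within the run the genes differed in their response to acetate. The first pair, mRNA_7235 (coding length 480 bp) and mRNA_7236 (216 bp), moved side by side. In low nitrogen mRNA_7235 stood at 30.5, 30.0 and 33.1 CPM without and 68.6, 69.6 and 61.6 CPM with acetate at 48 h, and mRNA_7236 at 26.8, 26.0 and 31.0 CPM without and 58.5, 61.1 and 55.1 CPM with acetate. Both were higher with acetate in all 6 comparisons. The next, mRNA_7237 (1965 bp), had between 3.63 and 20.9 CPM in high nitrogen and between 0.930 and 3.96 CPM in low nitrogen, and acetate raised it in 5 comparisons and lowered it in high nitrogen at 88 h (log2 fold change -0.42, SE 0.17, edgeR adjusted p = 0.0286).

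The fourth gene of the run, mRNA_7238 (1182 bp), went the other way with acetate at 48 h. In high nitrogen its libraries stood at 277, 339 and 245 CPM without and at 41.7, 27.3 and 43.7 CPM with acetate (log2 fold change -2.94, SE 0.34, edgeR adjusted p = 7.71e-09). In low nitrogen they stood at 6.76, 5.25 and 2.67 CPM without and at 0.360, 0.278 and 0.237 CPM with acetate (log2 fold change -4.06, SE 0.64, edgeR adjusted p = 4.79e-06), the latter close to the level of 3 counts. At 88 h acetate made no called difference to it in either medium (edgeR adjusted p = 0.795 and 0.33). The last, mRNA_7239 (1287 bp), had between 1.07 and 18.2 CPM in high nitrogen and only 25 counts over the 18 low nitrogen libraries, so no change within low nitrogen could be detected at this depth. Since the last 3 models abut, reads running across their borders could be counted for a neighbour, and how such reads were handled is not stated.

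**Figure D5:**
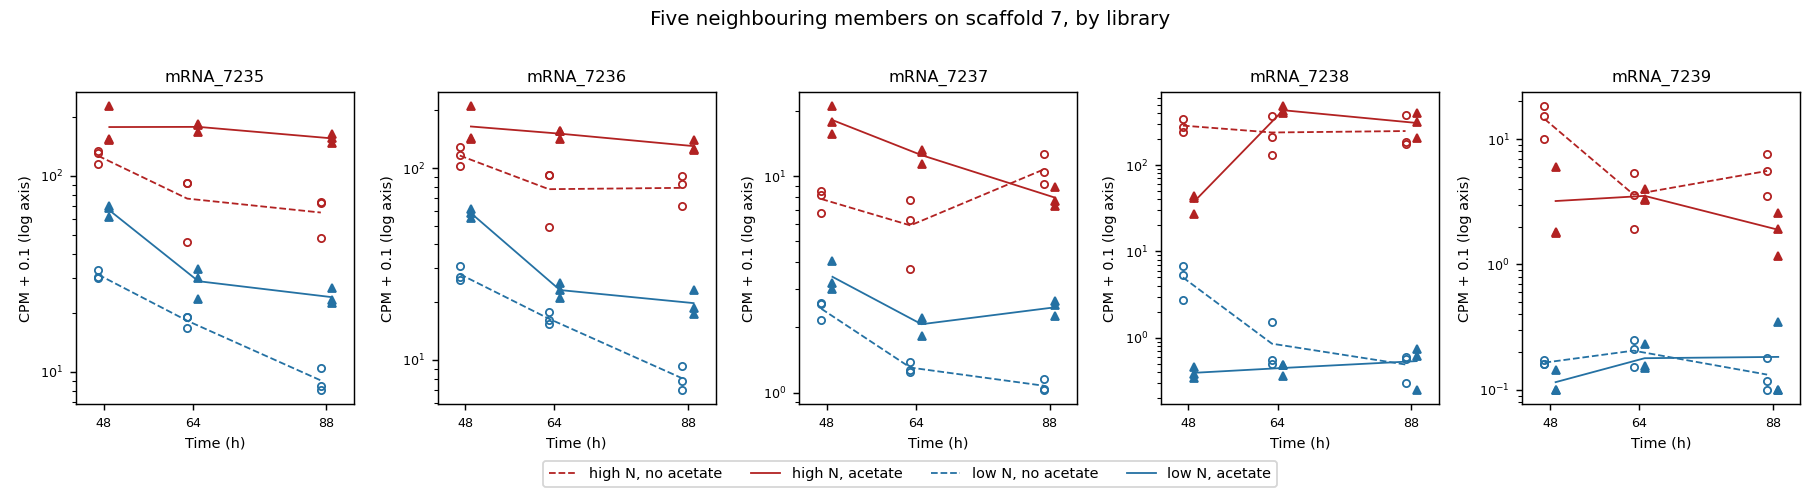
CPM plus 0.1 (log axis) against sampling time in h for the 5 neighbouring genes on scaffold 7, in catalogue order from left to right; points are libraries, lines join means of 3 replicates, red is high and blue low nitrogen, and dashed lines are without and solid lines with acetate. In mRNA_7235 and mRNA_7236 the solid lines lie above the dashed ones, while in mRNA_7238 at 48 h the solid lines lie below, at 27.3 to 43.7 against 245 to 339 CPM in high nitrogen.

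The other 4 runs were pairs whose members point away from each other. They were mRNA_4870 and mRNA_4871 on scaffold 3, 169 bases apart, mRNA_5869 and mRNA_5870 on scaffold 5, 28 bases apart, mRNA_1415 and mRNA_1416 on scaffold 11, 2476 bases apart, and mRNA_2118 and mRNA_2119 on scaffold 13, 164 bases apart. Of the 8 neighbouring pairs within runs, 4 were head to head, 4 on the same strand and 0 tail to tail, while over the 8469 neighbouring pairs of the catalogue the shares were 27.8%, 44.5% and 27.7%. Both members of the pair on scaffold 5 were low in all low nitrogen libraries. In high nitrogen mRNA_5869 ran from 144 to 749 CPM and mRNA_5870 from 2.97 to 9.86 CPM, and in low nitrogen they ran from 15.7 to 72.1 CPM and from 0.0498 to 0.953 CPM. In the pair on scaffold 13, mRNA_2118 (which overlaps a gene on the other strand) and mRNA_2119 were both highest in high nitrogen without acetate at 48 h, at 114, 103 and 112 CPM and at 87.7, 74.6 and 74.3 CPM. At 88 h mRNA_2118 still stood at 28.5, 29.8 and 32.9 CPM, when mRNA_2119 stood at 4.25, 3.52 and 4.82 CPM.

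The 94 gene models had a median of 5 exons, as did all genes, and 5 had a single exon. Their median coding length was 1144.5 bp, from 216 to 3717 bp, beside 1290 bp over the 7736 genes with at least 1 CPM in every high nitrogen group, which alone could have met the rule. On the plus strand lay 59.6% of them, beside 49.9% of the catalogue. They were spread over 17 scaffolds. The most were 12 on scaffold 3 (1.53% of its catalogue genes), 12 on scaffold 7 (2.02%) and 10 on scaffold 8 (1.69%). Those on scaffold 7 include the run of 5. By share of their genes, scaffolds 11 (2.11%) and 14 (2.01%) were much like scaffold 7. Overlap with a gene on the same strand was annotated for 6 and with a gene on the other strand for 12, and because the strand setting of the counting is not stated, their counts are uncertain.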

How the data were processed

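Messenger RNA of 36 samples was sequenced from both ends after stranded library preparation with the Watchmaker kit, per the labels' protocols. The authors deposited 1 table of counts per library, whole numbers per catalogue mRNA; the label text also names a scaled unit, but the totals differ between libraries and the values were used as raw counts. The submitters' processing notes list STAR 2.7.10a, Subread 2.0.4 with featureCounts, Trimmomatic 0.39, MultiQC 1.9 and FastQC 0.11.9, without roles. Whether counting used strand, and how multiply matching reads were treated, is not given in the sources used here. Positions are from the deposited catalogue of assembly version 4, 1-based.

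Libraries totalled 10173719 to 63311529 counts, and floors of 3 counts cover counting error only. The analysis used edgeR 4.0.16 under R 4.3.3. CPM used TMM factors over all genes. The quasi-likelihood F-test was fitted to the 8314 genes passing filterByExpr (176 did not) with 1 mean per group over all 36 libraries. P-values were adjusted by Benjamini-Hochberg over those genes, and an adjusted p below 0.05 was called. The fit was also run on simulated counts with known changes in 1 group only and independent libraries. That setting is simpler than these data, and no conclusion is drawn from it. Alternatives were library totals alone, RLE size factors, all genes unfiltered, at least 10 CPM in at least 3 libraries, DESeq2 1.42.0, a replicate block, only the groups compared, and libraries left out.

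The members, comparisons and alternatives were chosen with earlier results of these data known. Genes are named by rule: the 8 highest in high nitrogen, the 4 deepest by mean ratio, per comparison the 2 highest and 2 lowest called members with at least 10 CPM in the higher group, 3 on each side of the threshold, members of the 3 longest runs, and the 3 least and 3 most variable ratios. Where a count of 12 or fewer is given, its genes are named outside that rule, after their values were seen; so were mRNA_7728 and the values of named genes in further comparisons. No sequences, gene names or gene lists were used, since nothing at hand pairs them with the catalogue numbers.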

Additional observations from a re-analysis of the deposited data

Results flagged for a closer look

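The acetate effect differed between 48 and 88 h, by the test of the difference itself in edgeR, for 8 genes that the naming rule picks, which asks for at least 10 CPM in the highest of the 4 groups. In low nitrogen the difference, the log2 acetate effect at 88 h minus that at 48 h, was 3.43 for mRNA_4095 (SE 0.50, adjusted p = 1.75e-06) and 3.05 for mRNA_1116 (SE 0.39, adjusted p = 2.75e-07). In low nitrogen mRNA_1116 stood at 41.8, 39.7 and 37.6 CPM without and 12.5, 11.5 and 12.7 CPM with acetate at 48 h, and at 24.2, 20.5 and 22.9 CPM without and 57.7, 62.6 and 50.9 CPM with acetate at 88 h. Under the same limit the most negative differences in low nitrogen were -1.26 for mRNA_6702 (SE 0.44, adjusted p = 0.0226) and -1.24 for mRNA_7368 (SE 0.30, adjusted p = 0.00107). That of mRNA_6702 did not pass when replicate 3 of the acetate group at 48 h or of the group without acetate at 88 h was left out, where the adjusted p was at most 0.0651.

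In high nitrogen the difference was 4.61 for mRNA_5452 (SE 0.30, adjusted p = 1.33e-13) and 4.20 for mRNA_2637 (SE 0.29, adjusted p = 2.60e-13). For mRNA_2637 the libraries stood at 25.2, 25.8 and 20.8 CPM without and 6.35, 7.62 and 10.9 CPM with acetate at 48 h, and at 18.2, 15.7 and 20.3 CPM without and 108, 105 and 123 CPM with acetate at 88 h. The most negative were -3.55 for mRNA_7042 (SE 0.23, adjusted p = 5.87e-14) and -3.42 for mRNA_1339 (SE 0.30, adjusted p = 4.23e-11). For mRNA_7042 acetate and none stood close together at 88 h, at 23.1, 25.7 and 21.3 CPM against 19.5, 20.9 and 20.5 CPM.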

How the results depend on the processing

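Of 1098 counts recomputed under alternatives for 25 results, 1094 stayed within 1.5 times. Most alternatives left out 1 of the 36 libraries, usually one outside the groups compared, so small changes were largely built in. Counts taken over several comparisons together are not among the 25, and some moved more. With library totals the members raised by acetate at all 3 times went from 18 to 7 in high nitrogen and from 16 to 15 in low nitrogen. With library totals alone the members raised by acetate went from 26 to 17 in low nitrogen at 64 h and from 44 to 23 in high nitrogen at 88 h. Fitting only the groups compared took those lowered in high nitrogen at 64 h from 20 to 13. With 1 library left out at a time, those lowered in low nitrogen at 88 h ranged from 11 to 18. Library totals gave 135 genes under the membership rule, 91 of them members; RLE size factors gave 96, an added 0.5 CPM 99, an added 5 CPM 69, medians 98 and leaving out the 4 libraries that stood apart 87. The cause was not tested. Of 2112 values for 48 named log2 fold changes, 0 changed sign and 2, both of mRNA_6702, lost the call. Same-numbered replicates did not deviate together in any of 10 comparisons of 2 groups (correlations from -0.365 to 0.225), so the numbers were not used as pairs. With a replicate block 54 members rose with acetate in high nitrogen at 48 h, as without it, and 37 in place of 36 did in low nitrogen at 48 h. Depth limits the genes with few counts in low nitrogen, such as mRNA_7239.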
